A study of Rattus norvegicus with 6 samples.

Results

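Described here are 9 genes of the insulin-like growth factor (IGF) system in the injured spinal cord: the ligands Igf1 and Igf2, the receptor Igf1r, and the binding proteins Igfbp2, Igfbp3, Igfbp4, Igfbp5, Igfbp6 and Igfbp7. The genes were taken by symbol, as the ligands, the type 1 receptor and secreted binding proteins of this family. Igfbp1 was not among them. All 9 were among the 28615 genes shared by the time-course tables and among the 25054 genes of the injected tables. IGF1 and IGF2 are secreted peptides that signal through the receptor tyrosine kinase IGF1R, which acts through AKT and MAP kinase to favour growth and survival. Secreted binding proteins hold the ligands outside the cell, extend their life and keep them from the receptor or carry them to it, and proteases that cut the binding proteins set the ligands free. IGFBP7 binds IGF weakly and is known as a vascular matrix protein, and IGFBP6 prefers IGF2.

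Single cells of spinal cord were profiled in 6 droplet libraries, with 1 library per group. The labels give the genotype SD, Rattus norvegicus as organism, an age of 6 to 8 weeks and 5 animals per condition, and do not say whether these were pooled. The time course set intact cord beside cord 1, 3 and 7 days after a crush at thoracic level 10. The other groups were crushed, injected 3 days later at 5 sites of 1 µl with MPSS at 10 mg/ml or with PBS, and collected 2 weeks after injury. MPSS is left as the labels write it. A label for treatment names the crush injury in the intact sample as well; the grouping here rests on the sample titles. The time-course tables carry mouse-form gene names for 26.8% of genes and no rat-form names, while the injected tables carry rat-form names. The time course and the injected pair were therefore never compared by level. Rat is the organism that the labels give. Whether the mouse-form names reflect the cells or only the reference used for counting was not tested.

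The libraries held 1377 to 9263 kept cells and 9661552 to 72515788 unique molecular identifiers (UMIs, counted molecules), with medians of 3090 to 6648 UMIs per cell in the time course and 10292 and 10417 in PBS and MPSS. Between 5 and 91 cell barcodes were shared by any pair of libraries. Cells were clustered without the 9 genes and the clusters were named from marker genes, so a name such as endothelial means endothelial-like. Neuron-like cells numbered 17 in the time course, and no time-course cluster was named oligodendrocyte. A level is the sum of a gene's UMIs over the cells of a class per 1000000 UMIs of that class (CPM). Brackets hold 95% intervals that cover counting error only. No difference between groups has a replicate check, so none was tested. A gene is counted as higher or lower where levels differed at least 2-fold with at least 10 UMIs in both sums together. Within a class it also needed, where higher, at least 0.2 of the level in the class with the highest level, as a bound against RNA free in the droplets. A gene can meet this bound through the library where it is high alone and had then to differ, so counts of genes within a class describe those that met it and are no evidence for a direction.

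Over all cells, 4 of 9 genes were at least 2-fold higher and 2 at least 2-fold lower at day 1 than in the intact library, where 11.7% and 28.9% of all genes measured were. At day 3 the counts were 3 higher and 1 lower, against 8.68% and 36.7% of all genes. At day 7 they were 3 higher and 2 lower, against 7.18% and 34.8%. The median log2 ratio of the 9 genes was 0.90 at day 1, 0.19 at day 3 and 0.23 at day 7, beside -0.40, -0.65 and -0.67 over all genes. Those at least 2-fold higher at day 1 were 4 of the 6 binding proteins, Igfbp2, Igfbp3, Igfbp4 and Igfbp7. By day 7 Igf1 was the gene with the highest ratio. The receptor was lower at all 3 times. TMM scaling (edgeR), which takes most genes as unchanged, moved every ratio against intact by 0.45, 0.70 and 0.70 on the log2 scale at days 1, 3 and 7. With it Igfbp5 at day 1 (0.666 of intact) and Igfbp6 at day 7 (0.791) were no longer 2-fold lower. Igf1 and Igf2 at day 1, Igfbp2 at day 3 and Igfbp3 at day 7 then became at least 2-fold higher. Without it the ratios of the first 3 were 1.86, 1.51 and 1.70. Sums over all cells mix classes, and fewer cells of a type cannot be told apart from less RNA per cell.

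**Figure D1:**
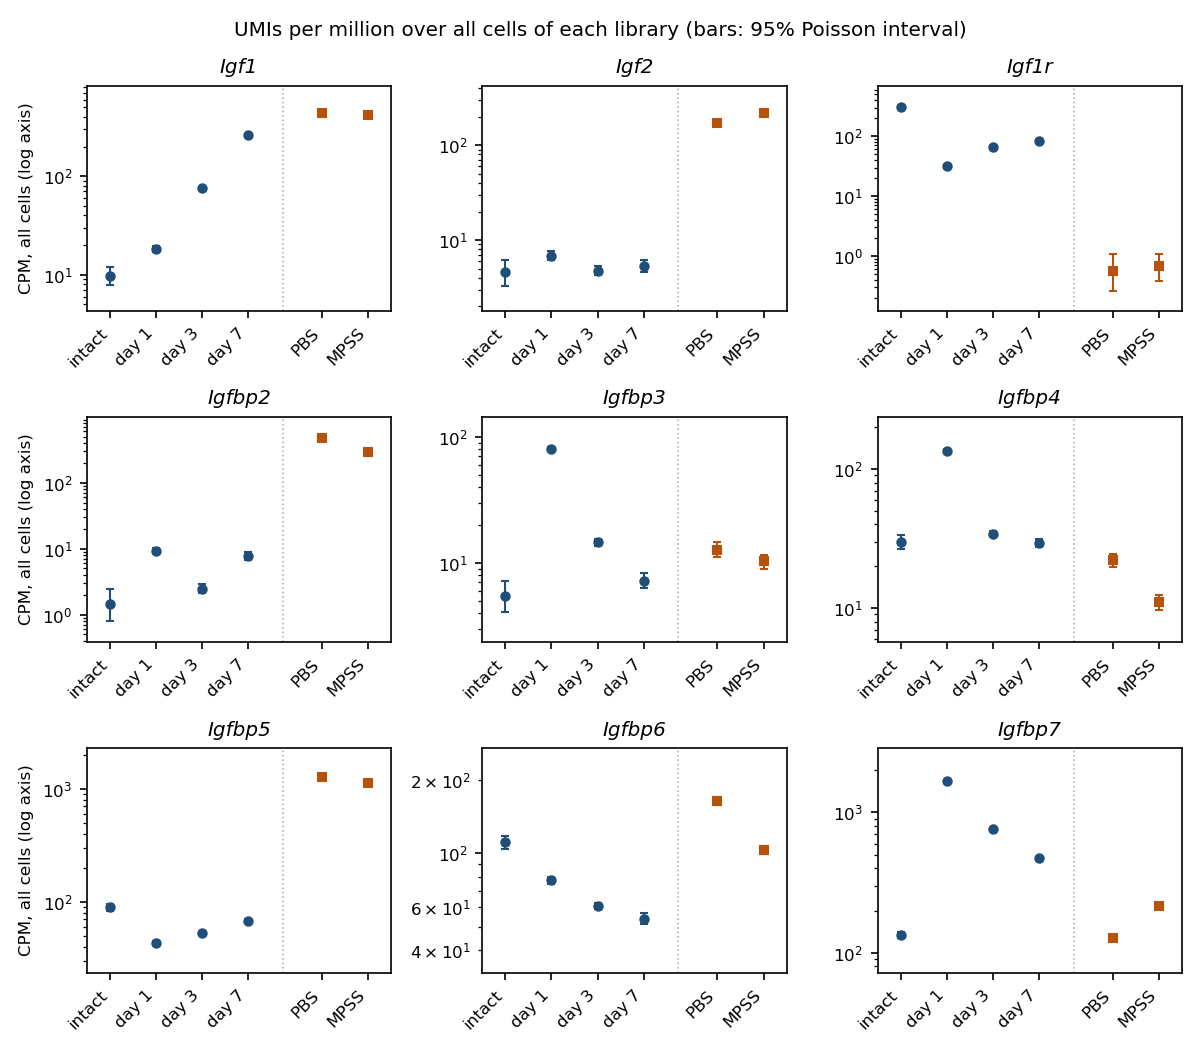
CPM over all cells of each library for the 9 genes, on log axes that differ between panels, with 95% Poisson intervals, circles for the time course and squares for the injected pair. Igf1 goes from 9.73 in the intact library to 263 at day 7, Igf1r from 310 to 83.9, and Igfbp7 is highest at day 1 with 1671.

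Among classes of at least 30 cells, the class with the highest level was the same in all 4 time-course libraries for 6 of the 9 genes, and in PBS and MPSS for 7. It was fibroblasts in all 6 libraries for Igf1, Igf2, Igfbp4, Igfbp5 and Igfbp6, and endothelial cells for Igf1r, which in the injected pair rests on 2 UMIs in each library. The class with the highest level of Igfbp2, Igfbp3 and Igfbp7 differed between libraries. Under TMM and under median-of-ratios scaling phagocytes, not fibroblasts, had the highest Igf1 at day 7. The intact library held 29 OPC and 22 pericytes, which the ranking leaves out and whose levels of Igfbp3 (94.2 CPM) and Igfbp7 (439 CPM) lay above those of its endothelial cells.

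Igf1, the main circulating and local IGF ligand, stood at 9.73 CPM over all intact cells, 18.1 at day 1, 76.0 at day 3 and 263 at day 7. Day 3 was 7.81-fold [6.37, 9.68] and day 7 27.0-fold [22.1, 33.5] above the intact library, and 12.7- and 44.0-fold under TMM scaling. The class that held its UMIs differed between days. Fibroblasts held 80.2% at day 1, and phagocytes (microglia with macrophages and monocytes) held 46.8% in the intact library, 12.5% at day 1, 90.2% at day 3 and 94.7% at day 7.

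In microglia, the resident phagocytes of the cord, Igf1 stood at 6.06 CPM in the intact library, 3.11 at day 1, 124 at day 3 and 371 at day 7. Microglia were thus 20.5-fold [12.8, 35.2] above intact at day 3 and 61.2-fold [38.2, 105] at day 7. In microglia 9.23% of all genes measured were at least 2-fold higher at day 3 and 5.23% at day 7. A UMI of Igf1 was seen in 1.25, 2.33, 36.3 and 44.3% of microglia from intact to day 7, at median depths of 3261, 9990, 7423 and 3865 UMIs. In endothelial cells the shares were 0.176, 0.433, 2.21 and 4.07%, at median depths of 2867, 4251.5, 3861 and 2451. Whether those UMIs were free RNA or came from endothelial cells was not tested. With every cell thinned to 1000 UMIs, and none too shallow for it, the shares of microglia were 0.125, 0.222, 8.67 and 20.4%.

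Macrophages and monocytes ran another course. Their Igf1 stood at 146 CPM in the intact library, 5.58 at day 1, 60.1 at day 3 and 256 at day 7. Day 1 was 26.2-fold [15.98, 42.0] below intact, and in this class 22.9% of all genes were at least 2-fold lower. Igf1 met the bound there through the intact library alone, so it had to come out lower. The intact class held 44 cells, and all 27 of its Igf1 UMIs lay in a cluster of 27 cells led by Lyve1, Cbr2 and Mrc1, genes of perivascular and meningeal macrophages. In that cluster Igf1 stood at 257 CPM in the intact library, 65.5 at day 1, 154 at day 3 and 268 at day 7. The cluster led by Cxcl3, Ccl24 and Arg1, which held 1624 of the 2121 macrophages and monocytes at day 1, had 1.49 CPM of Igf1 there. The class was thus held by different clusters in the intact library and at day 1.

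Among microglial clusters Igf1 was uneven. A cluster led by Apoc1, Apoc4 and Igf1 itself, which the clustering had left out, with Cd5l, Apoe and Lpl also among its leading genes, had 352 CPM at day 3 in 310 cells and 725 at day 7 in 1074 cells. A cluster led by the homeostatic genes P2ry12 and Siglech had 50.5 CPM at day 3 and 48.5 at day 7. Intact microglia lay mainly in another P2ry12 cluster of 770 cells, with 1.86 CPM, and day-1 microglia in a cluster of 1672 cells led by Ccl12, with 2.73 CPM. The higher level of the class at day 7 than at day 3 thus sits beside more cells in the Apoc1 cluster and a higher level within it. The level in the P2ry12 cluster was 50.5 and then 48.5. The largest microglial cluster of those days, with 1195 and 1650 cells, and the remaining ones are not described here. The microglia marker list scored 0.529 in the Apoc1 cluster and 0.514 in the Ccl12 cluster, with none of its genes among their leading genes. In the 2 P2ry12 clusters it scored 0.874 and 0.998, so the name is weaker for the Apoc1 and Ccl12 clusters.

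Fibroblasts, the collagen-producing cells of meninges, vessels and scar, held Igf1 in every library. The level was 230 CPM [166, 311] in the 39 intact fibroblasts, 369 at day 1, 199 at day 3 and 438 at day 7. None of these was 2-fold from the intact level. Phagocytes as a whole stood at 14.7, 4.02, 90.7 and 339 CPM. Days 3 and 7 were 6.17-fold [4.59, 8.50] and 23.1-fold [17.2, 31.8] above intact. Igf1 was the 1 gene of the 9 that met the bound in phagocytes on those days, and it met it through the injured libraries alone, as it did in microglia. The shares of all genes at least 2-fold higher in phagocytes were 9.11% and 5.31%, and at least 2-fold lower 28.4% and 29.1%. The 2 values depended on which cells were named phagocytes in the intact library, and were 15.3- and 57.6-fold at Leiden resolution 0.5. At day 1 none of the 9 was eligible in phagocytes, where 14.1% of genes were at least 2-fold higher and 24.0% at least 2-fold lower.

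Igf2, the ligand best known from fetal growth and from the meninges and choroid plexus of the adult brain, was a fibroblast gene in all 6 libraries. Over all cells it stood at 4.55, 6.87, 4.74 and 5.35 CPM from intact to day 7, with no day 2-fold from the intact library. Under TMM scaling day 1 passed 2-fold above intact. Fibroblasts held 86.4, 94.5, 88.4 and 87.7% of its UMIs, at 208, 165, 167 and 248 CPM. In the intact library 25 of the 38 fibroblast UMIs came from 1 cell, so that level rests on it. With the top cell left out of each sum, Igf2 over all cells was 3.29-, 2.15- and 2.42-fold above intact at days 1, 3 and 7.

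**Figure D2:**
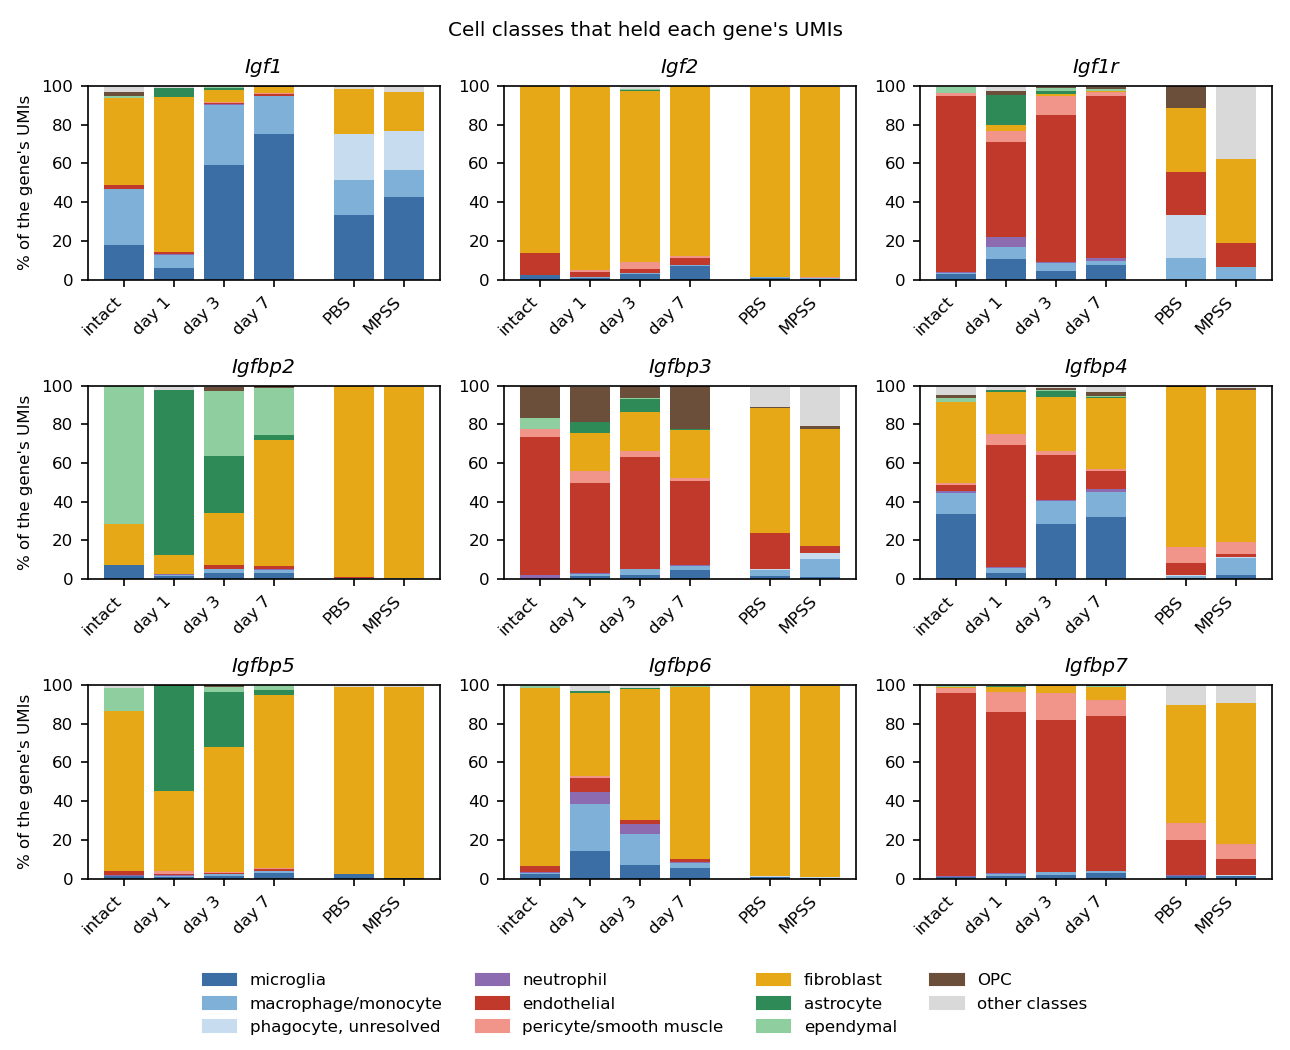
Share of each gene's UMIs (percent) held by each cell class in each of the 6 libraries, with smaller classes in grey. Igf1 lies mostly in fibroblasts at day 1 (80.2%) and in phagocytes at day 7 (94.7%), Igf2 in fibroblasts throughout, and Igfbp7 of the time course in endothelial cells (78.5 to 94.7%). The Igf1r bars of the injected pair rest on 9 and 16 UMIs.

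Igf1r, the receptor, had its highest level in endothelial cells in each time-course library, among classes of at least 30 cells. Over all cells it stood at 310 CPM in the intact library, 31.4 at day 1, 66.4 at day 3 and 83.9 at day 7, lower than intact by 9.87-fold [9.29, 10.5], 4.66-fold [4.45, 4.88] and 3.69-fold [3.50, 3.89]. Under TMM scaling days 3 and 7 were at 0.349 and 0.441 of intact. The make-up of the libraries moved with it, since endothelial cells were 41.3, 15.7, 14.7 and 16.8% of cells. Endothelial cells held 90.9, 49.4, 76.0 and 83.7% of the UMIs.

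Within endothelial cells, Igf1r stood at 682 CPM [656, 708] in the intact library, 119 [111, 127] at day 1, 477 [462, 493] at day 3 and 592 [567, 618] at day 7. Day 1 was 5.74-fold [5.30, 6.22] lower than intact. Day 3 was 1.43-fold and day 7 1.15-fold lower, both under the 2-fold mark. It was the 1 member lower in endothelial cells at day 1, where 12.7% of all genes were, and it met the bound in both libraries. Different clusters held the class. Of the intact endothelial cells 986 of 1138 lay in a cluster with 712 CPM, 1143 of the 1156 day-1 cells in a cluster led by Apln and Ackr1 with 118 CPM, and most cells of days 3 and 7 in a cluster with 625 and 627 CPM. The 148 day-3 cells in the Apln cluster had 115 CPM, close to its day-1 level, and the 39 cells of a cycling endothelial cluster at day 3 had 133. Pericytes and smooth muscle cells stood at 508, 102, 385 and 147 CPM, but in the intact library they numbered 22. Endothelial markers stood there at medians of 66.1, 57.1 and 27.7% of their endothelial level at days 1, 3 and 7, and Igf1r at 85.8, 80.6 and 24.9%.

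Igf1r was scarce in microglia, at 32.8 CPM in the intact library and 9.33, 8.47 and 12.1 at days 1, 3 and 7. These levels were 4.81, 7.85, 1.77 and 2.05% of the endothelial level, which is too low for a comparison under the bound. In the injected tables Igf1r had 9 UMIs in PBS and 16 in MPSS over all cells, so its level could not be resolved by class there.

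Of the binding proteins, Igfbp7 was highest in endothelial cells or pericytes of the time course, Igfbp4, Igfbp5 and Igfbp6 in fibroblasts, and Igfbp2 and Igfbp3 in classes that changed between libraries. In endothelial cells Igfbp3, Igfbp4 and Igfbp7 were at least 2-fold higher at day 1, as were 10.9% of all genes that met the bound. Igfbp4 met it through day 1 alone. Igfbp3 met it in the intact library with the 29 OPC left out of the ranking. At days 3 and 7 Igfbp3 and Igfbp7 were higher, beside 5.30% and 3.43% of all genes, and none of the 9 was lower, beside 8.22% and 6.21%. The day-1 endothelial cluster and the intact one differ, as above.

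The 250 bases before the annotated start of these 3 genes are shown, because all 3 were higher in the endothelial class at day 1. This is no evidence for a shared direction, since Igfbp4 met the bound through day 1 alone and different clusters held the class. The bases are rat RefSeq sequence of build GRCr8, 5′ to 3′ on the gene's strand, and all 9 genes matched the promoter table by symbol. The levels come from tables with mouse-form gene names, so the sequences may not be those of the reference used for counting. Capitals mark matches, on either strand, of a TATA box (TATAAA), a GC box (GGGCGG), the core of a hypoxia response element (ACGTG) or an AP-1 site (TGANTCA).
Igfbp3, chr14:86277945-86278194, minus strand: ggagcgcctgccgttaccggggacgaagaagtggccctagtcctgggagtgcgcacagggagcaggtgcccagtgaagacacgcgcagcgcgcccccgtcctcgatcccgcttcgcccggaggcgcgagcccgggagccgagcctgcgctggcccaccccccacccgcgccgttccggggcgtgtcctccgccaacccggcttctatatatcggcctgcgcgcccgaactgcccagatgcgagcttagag
Igfbp4, chr10:84491221-84491470, plus strand: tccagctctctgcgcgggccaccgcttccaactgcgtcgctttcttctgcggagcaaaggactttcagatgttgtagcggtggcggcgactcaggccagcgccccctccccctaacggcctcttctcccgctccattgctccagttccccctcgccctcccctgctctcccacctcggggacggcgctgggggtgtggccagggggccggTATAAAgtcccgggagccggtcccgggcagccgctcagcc
Igfbp7, chr14:31091486-31091735, plus strand: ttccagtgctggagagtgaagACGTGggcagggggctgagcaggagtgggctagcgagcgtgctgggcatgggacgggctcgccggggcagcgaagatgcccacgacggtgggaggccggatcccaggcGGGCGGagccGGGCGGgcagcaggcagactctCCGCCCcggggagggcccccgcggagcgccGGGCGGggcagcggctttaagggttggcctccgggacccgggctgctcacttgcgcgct
Igfbp4 had 1 TATAAA, 40 bases before the start. Igfbp7 had 4 GC boxes, at 121, 111, 89 and 59 bases before it, and 1 ACGTG at 229 bases. Igfbp3 had none of these letters in this window. Of 33469 rat promoter windows of the same length, 12.9% held TATAAA, 30.5% GGGCGG, 16.6% ACGTG and 6.34% TGANTCA. The 3 windows thus share none of the motifs searched, and their GC contents were 71.6, 68.8 and 74.4%.

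Igfbp7 stood at 134 CPM over all intact cells, 1671 at day 1, 759 at day 3 and 476 at day 7, or 12.5-fold [11.8, 13.2], 5.66-fold [5.36, 5.98] and 3.55-fold [3.36, 3.76] above intact. TMM scaling gave 9.21- and 5.78-fold at days 3 and 7. In endothelial cells the levels were 307, 10673, 5633 and 3203 CPM, or 34.7-fold [32.8, 36.8], 18.3-fold [17.3, 19.4] and 10.4-fold [9.82, 11.1] above intact. The share of endothelial cells with a UMI was 58.2, 99.2, 99.4 and 98.2%, and 26.7, 97.6, 96.8 and 90.7% at 1000 UMIs per cell. The level was thus highest at day 1 and remained above intact to day 7. It was so in more than the day-1 cluster, since the main cluster of days 3 and 7 had 4974 and 2984 CPM, and had 328 in its 82 intact cells.

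Phagocytes had 4.01, 62.0, 33.7 and 24.1 CPM of Igfbp7, which at day 1 was 0.581% of the endothelial level, where endothelial markers stood at a median of 0.763%. Igfbp7 in phagocytes thus lay within the background of those markers. Pericytes had 439, 10345, 6144 and 3506 CPM of Igfbp7, 96.9, 109 and 109% of the endothelial level at days 1, 3 and 7. Endothelial markers in pericytes stood at 66.1, 57.1 and 27.7%. Fibroblasts had 38.4 CPM from 7 UMIs in the intact library, then 1151, 1126 and 1657. At day 7 this was 43.2-fold [20.9, 108] above intact and 51.7% of the endothelial level, where endothelial markers stood at a median of 2.15%.

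Igfbp3, the main carrier of IGF in serum, stood at 5.49 CPM over all intact cells, 79.9 at day 1, 14.6 at day 3 and 7.22 at day 7. Day 1 was 14.6-fold [11.1, 19.5] and day 3 2.66-fold [2.02, 3.57] above intact. Day 7 was under 2-fold, but above it under TMM scaling. In endothelial cells it stood at 9.52, 286, 79.5 and 26.3 CPM, or 30.0-fold [21.8, 42.6], 8.36-fold [6.02, 11.9] and 2.76-fold [1.88, 4.13] above intact. A cluster led by the arterial genes Gkn3, Bmx and Sox17 held 22 of the 38 intact endothelial UMIs and had 72.4 CPM there, 227 at day 3 and 148 at day 7. At day 3 the Apln cluster had 233 CPM and the main cluster 17.3. With each library clustered alone the endothelial ratios were 103-, 29.5- and 9.74-fold.

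Igfbp3 was also present outside the vessels. In oligodendrocyte precursor cells (OPC, the dividing glia that make oligodendrocytes) it stood at 94.2 CPM [43.1, 179] in 29 intact cells, 704 at day 1, 54.1 at day 3 and 71.7 at day 7. The day-1 level was the highest of any class, and day 3 was 13-fold [10.1, 16.9] lower than day 1, where 7.70% of genes measured in OPC were at least 2-fold lower. In fibroblasts there was no UMI in the intact library, where the floor of 3 counts over the class equals 16.4 CPM, and 401, 116 and 93.8 CPM at days 1, 3 and 7. These were at least 24.4-, 7.04- and 5.70-fold higher than intact. Pericytes stood at 311 CPM at day 1. OPC, fibroblasts, pericytes and endothelial cells of day 1 thus all held it, and phagocytes, with 3.36 CPM, did not beyond 1.17% of the endothelial level.

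Igfbp4, a binding protein that the protease PAPP-A cuts, stood at 29.9 CPM over all intact cells, 135 at day 1, 34.2 at day 3 and 29.2 at day 7. Only day 1 was 2-fold from intact, at 4.51-fold [4.01, 5.09]. In endothelial cells it had 8 UMIs and 2.00 CPM in the intact library, then 650, 75.8 and 23.0. Day 1 was 324-fold [164, 752] above intact, with a wide interval set by the 8 intact UMIs, and 674-fold with each cell thinned to 1000 UMIs. The days after were too far below the fibroblast level to compare. Fibroblasts held it throughout, at 663, 742, 386 and 564 CPM, with no day 2-fold from intact. Intact macrophages had 173 CPM, with 31 of 32 UMIs in the Lyve1 cluster, and the class had 19.02, 10.3 and 18.8 after injury. In the Lyve1 cluster itself the levels were 295, 174, 127 and 309 CPM, so the lower levels of the class lie beside a change in which clusters hold it.

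**Figure D3:**
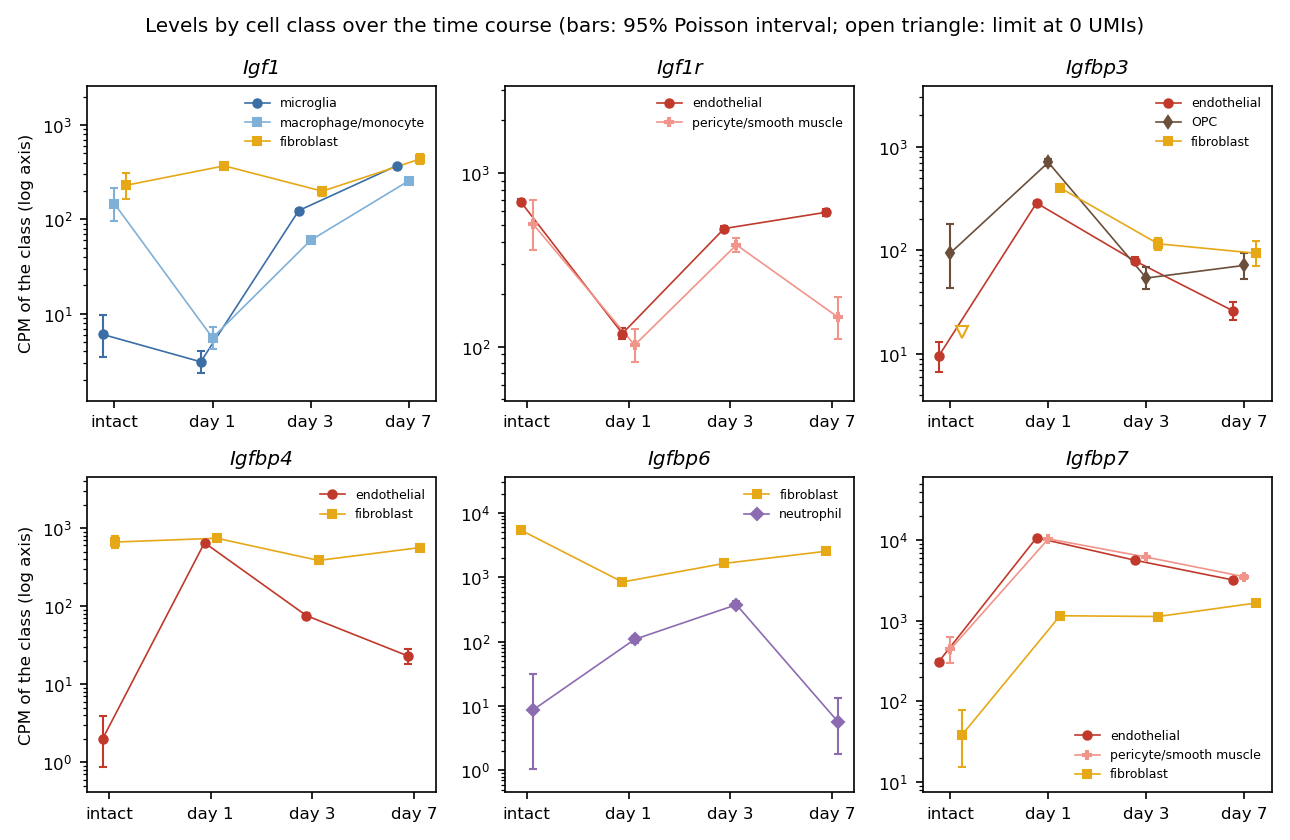
CPM by cell class over the time course for 6 genes, on log axes that differ between panels, with 95% Poisson intervals and an open triangle for the limit of 3 counts where there was no UMI. Endothelial Igf1r is lowest at day 1 (119), endothelial Igfbp3, Igfbp4 and Igfbp7 are highest there (286, 650 and 10673), and microglial Igf1 is highest at day 7 (371).

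Fibroblasts had the highest level of Igfbp5 and Igfbp6 in all 6 libraries. Of 7 eligible genes in fibroblasts at day 1, 1 was at least 2-fold higher (Igfbp3) and 2 lower (Igfbp5 and Igfbp6), against 13.5% and 16.5% of all genes. At day 3 the same counts of 1 and 2 of 7 fell on the same genes, against 14.4% and 15.8%. At day 7, 3 of 8 were higher (Igfbp2, Igfbp3 and Igfbp7) and 1 lower (Igfbp6), against 14.5% and 11.5%. Igfbp3 at each day and Igfbp7 at day 7 met the bound through the injured library alone, and the other genes named met it in both. The fibroblasts of the time course lay in 1 cluster, and numbered 39, 224, 145 and 127.

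Igfbp5, a matrix-bound and much conserved binding protein, stood at 89.0, 43.3, 52.6 and 67.5 CPM over all cells, and day 1 was 2.05-fold [1.90, 2.22] lower than intact. In fibroblasts it stood at 3892 CPM in the intact library, 454 at day 1, 1350 at day 3 and 3207 at day 7. Day 1 was 8.57-fold [7.75, 9.46] and day 3 2.88-fold [2.65, 3.13] lower, and day 7 was within 2-fold. The level was thus lowest at day 1 and close to intact at day 7. Astrocytes, the glia that react to injury and border the scar, held 54.7% of the UMIs at day 1 and 28.6% at day 3, at 201 and 779 CPM. Day 3 was 3.87-fold [3.56, 4.21] above day 1, where 10.3% of genes measured in astrocytes were at least 2-fold higher. Different clusters held the class on those days. The day-1 cluster of 875 cells, led by Gfap, also had 9 ependymal markers above their detection bound, and the ependymal class of that library held 1 cell. The main day-3 cluster, of 192 cells, had 7 ependymal markers above that bound.

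Igfbp6 stood at 111, 77.4, 60.9 and 53.9 CPM over all cells, and day 7 was 2.06-fold [1.90, 2.22] lower than intact. In fibroblasts it stood at 5416 CPM, 843, 1641 and 2534, or 6.42-fold [5.93, 6.95], 3.30-fold [3.07, 3.55] and 2.14-fold [1.97, 2.32] lower than intact at days 1, 3 and 7. In neutrophils, the first blood cells to enter an injury, it stood at 8.64 CPM from 2 UMIs in the intact library, 108 at day 1, 374 at day 3 and 5.62 at day 7. The day-3 level was 22.8% of that in fibroblasts, where 8 fibroblast markers had a median of 0.114%. It was 43.3-fold [11.8, 360] above intact, where 36.0% of the genes measured in neutrophils were at least 2-fold higher, and it met the bound through day 3 alone. Different clusters held the class. A neutrophil cluster led by Cstdc4, Il1r2 and Mmp9 had 214 CPM at day 1 and 544 at day 3, and no UMI in its 21 cells of day 7. That cluster held 161 of the 204 neutrophils of day 3 and none of the 46 intact ones. The cluster led by the granule genes Camp, Ngp and Ltf held all intact neutrophils and 227 of the 248 of day 7. It had 8.64 CPM in the intact library and 56.2, 87.7 and 6.18 at days 1, 3 and 7, so within it day 3 was 10.1-fold [2.46, 89.5] above intact.

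Phagocytes of day 1 also had Igfbp6, at 53.0 CPM, with 91.2 in macrophages and monocytes and 30.5 in microglia. This was 6.28% of the fibroblast level, where 9 fibroblast markers had a median of 0.181% and a highest value of 1.02%. It lies above the background of those markers, yet under the bound of 0.2 for a comparison between libraries.

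Igfbp2, a binding protein of glia and of the meninges, stood at 1.45 CPM over all intact cells from 14 UMIs, 9.32 at day 1, 2.47 at day 3 and 7.71 at day 7. Day 1 was 6.43-fold [3.80, 11.9] and day 7 5.32-fold [3.11, 9.89] above intact, and 2.25- and 2.05-fold with each cell thinned. The class that held it differed between libraries. Ependymal cells, the ciliated cells that line the central canal, held 71.4% in the intact library, astrocytes 85.2% at day 1, and fibroblasts 65.1% at day 7. In ependymal cells it stood at 5.32 CPM in the intact library, 47.8 at day 3 and 62.4 at day 7, or 8.99-fold [4.57, 19.7] and 11.7-fold [5.93, 25.8] above intact, against 6.23% and 5.84% of genes in that class. At day 1 there was 1 ependymal cell, and the astrocytes had 67.4 CPM. Nearly all of those lay in the Gfap cluster with 9 ependymal markers, and with each library clustered alone, or each cell named alone by its markers, ependymal cells had the highest Igfbp2 at day 1. Whether astrocytes or ependymal cells held it then thus rests on how that cluster is named. In fibroblasts it stood at 16.4 CPM from 3 UMIs, 22.6, 26.3 and 266. Day 7 was 16.2-fold [5.43, 79.2] above intact and 10.1-fold [7.25, 14.3] above day 3, where 10.3% of fibroblast genes were at least 2-fold higher.

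None of the 9 genes was at least 2-fold higher or lower over all cells in MPSS than in PBS, where 2.48% and 4.20% of all genes were. The median log2 ratio of the 9 was -0.16, beside -0.04 over all genes. Of the ratios of MPSS over PBS over all cells, Igfbp7 had the highest, at 1.69 [1.61, 1.78], and Igfbp4 the lowest, at 0.503 [0.427, 0.592]. Igf1 stood at 438 CPM in PBS and 422 in MPSS, a ratio of 0.963 [0.934, 0.993]. In phagocytes 1.04% of all genes were at least 2-fold higher in MPSS and 2.78% lower. Igf1, the 1 eligible gene there, was neither, at 574 and 592 CPM with a ratio of 1.03 [0.995, 1.07]. In microglia it stood at 667 and 803 CPM and in macrophages at 384 and 308, so that the ratios, 1.20 [1.14, 1.27] and 0.802 [0.743, 0.866], lay on opposite sides of 1. The phagocytes of the injected pair also held 162 and 218 cells that the markers could not place in either class. These unresolved cells stood at 706 CPM in PBS and 660 in MPSS.

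Fibroblasts of the injected pair numbered 136 in PBS and 170 in MPSS, and held 98.2% of Igf2 in both, 99.0 and 98.9% of Igfbp2, 96.4 and 98.6% of Igfbp5, and 98.5 and 98.9% of Igfbp6. In this class 1 of 9 genes, Igfbp7, was at least 2-fold higher in MPSS and none lower, against 2.63% and 4.92% of all genes. Igfbp7 stood at 668 CPM in PBS and 1619 in MPSS, a ratio of 2.42 [2.27, 2.59]. It was higher in MPSS in each of the 3 fibroblast clusters. The cluster led by Igf2 and A2m had 2213 and 4743 CPM, that led by Smoc2 and Alpl 200 and 338, and that led by Sfrp2 and Comp 361 and 526. Within clusters the ratios were 2.14 [1.99, 2.31], 1.69 [1.42, 2.01] and 1.46 [1.20, 1.78], so 1 of the 3 reached 2-fold.

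Summed over the fibroblast class, the remaining genes stayed within 2-fold between PBS and MPSS, though some did not within single clusters. Igf2 stood at 1449 and 2221 CPM, a ratio of 1.53 [1.46, 1.61]. Most of it lay in the Igf2 cluster, with 5579 and 6943 CPM in 36 and 52 cells, a ratio of 1.24 [1.18, 1.31], so the larger ratio of the class lies beside more cells of that cluster. Igfbp2 stood at 3968 and 2952 CPM, a ratio of 0.744 [0.720, 0.769], with 0.586 in the Igf2 cluster, 0.678 in the Smoc2 cluster and 2.94 in the Sfrp2 cluster. Its clusters thus differed in direction. Igfbp5 stood at 10555 and 11477 CPM, Igfbp6 at 1376 and 1043, and Igfbp4 at 156 and 88.6. In the Igf2 cluster Igfbp6 had 889 and 355 CPM, 2.50-fold [2.11, 2.97] lower in MPSS. Its ratios in the Smoc2 and Sfrp2 clusters were 0.903 and 0.846. Igfbp4 had a ratio of 2.03 [1.07, 4.10] in the Igf2 cluster, from 13 and 44 UMIs. In the Smoc2 and Sfrp2 clusters it had 0.403 and 0.633. Igf1 stood at 876 and 870 CPM, a ratio of 0.993 [0.930, 1.06].

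In endothelial cells, 37 in PBS and 33 in MPSS, 2 of 3 eligible genes were at least 2-fold lower and none higher, beside 8.49% and 5.50% of all genes, and 1 of these, Igfbp4, met the bound through PBS alone. Igfbp3 had 38 and 9 UMIs, 3.35-fold [1.59, 7.87] lower in MPSS, and Igfbp4 had 22 and 4 UMIs, 4.36-fold [1.48, 17.4] lower. Endothelial Igfbp7 stood at 839 and 1237 CPM, under 2-fold. These counts are small and come from few cells. In PBS microglia Igfbp5 stood at 132 CPM, and 440 of its 460 UMIs came from 1 cell.

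**Figure D4:**
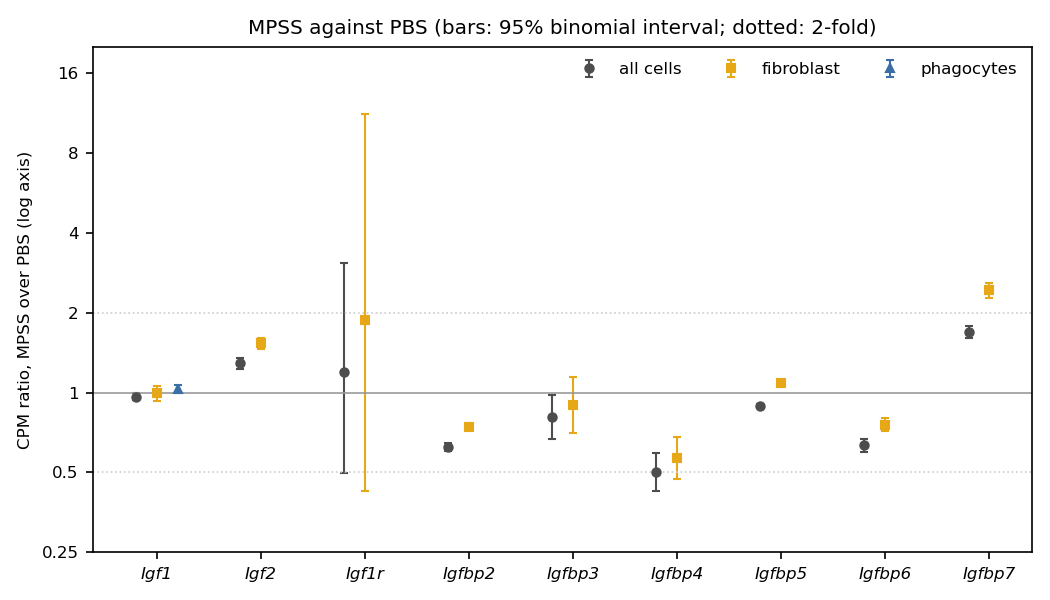
Ratio of CPM in MPSS over PBS for the 9 genes in all cells, fibroblasts and phagocytes, on a log axis, with 95% binomial intervals; ratios that did not meet the rule for a comparison are not drawn. Fibroblast Igfbp7 (2.42) is the 1 ratio drawn above 2, and Igfbp4 over all cells (0.503) lies at the lower dotted line.

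A list of 50 other genes of the pathway (insulin and IGF2 receptors, adaptors, kinases, binding-protein proteases and their inhibitors) was set beside the 9. It also held Igfbp1 and Igfbpl1. Over all cells, 9 of 46 eligible were at least 2-fold higher and 11 lower at day 1, 5 and 17 of 46 at day 3, and 2 and 16 of 42 at day 7, against the shares of all genes given above. The medians of the list, -0.36, -0.77 and -0.67 on the log2 scale, lay near those of all genes. The lowest ratios at each day were those of Grb14, an adaptor that dampens the insulin receptor, and Insr, the insulin receptor. Grb14 was 8.70-fold [7.66, 9.89], 6.46-fold [5.81, 7.18] and 4.18-fold [3.71, 4.71] lower, and Insr 3.34-fold [3.01, 3.69], 4.40-fold [3.98, 4.86] and 4.17-fold [3.70, 4.71] lower. The highest at day 1 were Eif4ebp1, a translation repressor below mTORC1, at 4.22-fold [3.84, 4.64], and Stc1, which inhibits PAPP-A, at 3.76-fold [2.62, 5.58]. At days 3 and 7 they were H19, the imprinted RNA beside Igf2, at 4.95-fold [3.93, 6.33] and 2.03-fold [1.59, 2.63], and Grb2, an adaptor to RAS, at 3.04-fold [2.73, 3.39] and 2.46-fold [2.20, 2.76].

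In MPSS against PBS 1 of 43 eligible pathway genes was at least 2-fold higher and 2 lower, beside 2.48% and 4.20% of all genes. These counts lie near those shares. Of the 50 genes, 47 were named in those tables. The gelatinase Mmp9 was 3.69-fold [2.62, 5.27] lower from 119 and 48 UMIs, and Insr 2.03-fold [1.33, 3.12] lower from 56 and 41. Igfbpl1, a protein related to the binding proteins, was 2.19-fold higher from 4 and 13 UMIs, with an interval of [0.675, 9.20] that spans 1. The second highest, the kinase Akt2, was under 2-fold at 1.54.

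Genes whose levels ran most like each of the 9 were ranked by Pearson's r of log2(CPM + 10) over 39 class-by-library profiles, which share libraries and depth. Igf2 ran with Osr1, Wnt2 and Krtdap (r of 0.98 for each). Igf1r ran with Prom1 (0.94), Ccdc141 (0.93) and Spock2 (0.92), and Igfbp7 with Col4a2 (0.93), Lama4 (0.89) and Col4a1 (0.89), which encode basement membrane chains. Igfbp5 ran with Thbs3 (0.94), Scara3 and Efna5 (both 0.93), and Igfbp2 with Ctf1 (0.92), P4ha3 (0.91) and Thbs3 (0.88). Igfbp6 ran with Slc47a1 (0.89), Efemp1 and Osr1 (both 0.88), and Igfbp3 with Syt12 (0.92), Fam171a2 (0.88) and Spred3 (0.86). The closest genes were looser for Igf1, with Timp2 (0.84), Ahnak2 (0.80) and AI427809 (0.79), and for Igfbp4, with Procr (0.78), Ptgis (0.77) and Pdlim1 (0.76).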

How the data were processed

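The authors deposited raw UMI counts per gene and cell. The submitters' processing notes name Cell Ranger 3.0.2, and the headers in the injected libraries' files name version 3.1.0. The build used is not given in the sources used here. How cells were called is not stated. The 9 genes, the pathway list, the markers and the rules were chosen with earlier results of these data known. Named genes are the 9, the 2 highest and 2 lowest ratios of the pathway list in each all-cell comparison against intact or PBS, and the 3 genes most like each of the 9.

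Kept cells had 200 genes and 500 UMIs or more, and a mitochondrial share of no more than 20%. Each set was scaled to 10000 per cell, logged, and clustered without the 9 genes (2000 variable genes, 30 components, 20 neighbours, Leiden resolution 1; scanpy 1.11.5, leidenalg 0.10.2). A cluster was named by whichever of 18 marker lists scored highest. Libraries were not aligned, so clusters can follow libraries. A doublet caller marked 0.0363% of intact cells, 1.25 to 1.61% of cells of days 1 to 7 and none in PBS and MPSS, so it did not work in 3 libraries, and doublets were kept. Levels carry exact Poisson, shares exact Clopper-Pearson and ratios exact binomial intervals; UMIs of 1 library are not replicates. The interval and call steps were tested on simulated data. TMM came from edgeR 4.0.16.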

Additional observations from a re-analysis of the deposited data

How the results depend on the processing

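The counts that moved by over 1.5 times did so as follows. The number of genes at least 2-fold lower over all cells was 1 in place of 2 at day 1 and at day 7 under TMM, median-of-ratios, the total without mitochondrial and ribosomal protein genes, the mean over cells, sums without the top cell, and thinning to 1000 UMIs. The genes are Igfbp5 and Igfbp6, whose ratios lie at the 2-fold mark. Without the top cell 5 genes in place of 3 were higher at day 3, with Igf2 and Igfbp2 added. In MPSS against PBS 1 gene, Igfbp4, in place of none was lower with cells kept from 1000 UMIs and up to a mitochondrial share of 10%. With no bound against free RNA, phagocytes had 3 higher and 4 lower at day 1, and 2 and 4 at day 3. At day 7 and in MPSS they had 2 and 2. Endothelial cells then had 2 lower at day 1 and 4 higher at days 3 and 7. The alternative admits levels near those of free RNA. Shares of all genes without the bound are not given here, so these counts are no evidence for a direction. The highest-level class was the same in the time course for 1 gene with classes of at least 100 cells, which leaves out intact fibroblasts, and in PBS and MPSS for 4 genes with each library clustered alone; the cause was not tested. The other 335 of 362 counts kept within 1.5 times. Of the called ratios 222 of 260 did, and none reversed. Of 248 levels, 174 stayed within 1.5 times after thinning, 200 with each cell named alone and 205 with each library clustered alone, and 223 to 245 otherwise. No paired analysis was possible because each group holds 1 library and no test was made. Low counts limit Igf1r in the injected pair, although its median depths, 10292 and 10417 UMIs per cell, were the highest. Why its counts were low there was not tested. The small number of cells limits all levels of the 39 intact fibroblasts.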
